A study of Mus musculus with 2 samples.

Results

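The mitochondrial carriers of the Slc25 family were compared between mouse small intestine and colon. All genes whose symbol on the array platform begins with Slc25a and a number were taken, which gave 44 of 18194 named genes, measured by 93 of 45101 probe sets. Slc25a45, the ornithine carrier Slc25a15 and the glutamate carrier Slc25a22 were more than 3-fold higher in the small intestine, and the carnitine carrier Slc25a20, the peroxisomal carrier Slc25a17, the glutathione carrier Slc25a40, Slc25a34 and Slc25a35 in the colon, while the ADP/ATP and phosphate carriers differed by less than 2-fold. Of several probe sets of a gene, the brightest over both arrays stood for it. The data came from 2 Affymetrix mouse genome arrays, 1 hybridised with total RNA from a colon biopsy and 1 with total RNA from a small intestine biopsy. Both biopsies are labelled wild-type, adult and Mus musculus, with no treatment named, and the strain, the number of animals behind each RNA and the segment of the gut are not in the labels. With 1 array per tissue no difference could be checked by a replicate, and none was tested.

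Carriers of the Slc25 family sit in the inner membrane of mitochondria, where they exchange nucleotides, phosphate, organic acids, amino acids and cofactors between the matrix and the cytosol. They are encoded in the nucleus, imported through the TOM and TIM22 complexes and share a fold of repeated membrane helices. In enterocytes of the small intestine, mitochondria turn glutamine into citrulline, a route that needs the exchange of ornithine and citrulline across this membrane, whereas colonocytes are known to burn short-chain fatty acids.

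Levels are given as log2 expression, and a difference is the log2 value of the small intestine minus that of the colon, after values below a background level of 5 were raised to 5. Carriers that differed by 3-fold or more are the ones counted, and a fold against a tissue without signal above 5 is written as at least that fold. Where a pair of levels follows a gene, the small intestine comes first. Of the 44 carriers, 33 were above background on both arrays, 2 on 1 array and 9 on neither. Probe sets bind with different strength, so levels are compared between tissues and not between genes. In a biopsy, fewer cells of a type and less RNA per cell cannot be told apart.

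Epithelium was well represented on both arrays, as all 7 epithelial markers were above background on both and only villin (Vil1) passed 3-fold, with 3.02-fold more in the small intestine. Genes of the exocrine pancreas were at least 3-fold higher on the colon array in 8 of 8 cases, and the log2 of their summed signal was 15.8 in the colon against 7.08 in the small intestine. Of 7 smooth muscle genes, 4 passed 3-fold in the colon, with a log2 summed signal of 14.5 against 13.5, and of 4 neuronal genes 2 did, with 8.72 against 6.85. These shifts stand beside every carrier higher in the colon, and their part in it was not tested. All 5 markers of red cell precursors were at or below background on both arrays, as were 3 of 5 striated muscle genes.

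Differences of 3-fold or more were found for 8 carriers, 3 of them toward the small intestine and 5 toward the colon. In the small intestine these were Slc25a45, Slc25a15 and Slc25a22, which make 6.82% of the 44 carriers, against 3.46% of all named genes and 5.71% of the 11016 named genes above background on either array. In the colon they were Slc25a17, Slc25a40, Slc25a34, Slc25a35 and Slc25a20, or 11.4% of the carriers, against 3.33% of all named genes and 5.49% of those above background on either array. At 2-fold, Slc25a36 and Slc25a37 joined the first group and Slc25a47, Slc25a33, Slc25a23 and Slc25a13 the second. This made 5 carriers higher in the small intestine, where 6.95% of all named genes and 11.5% of those above background on either array passed, and 9 higher in the colon, where the shares were 8.14% and 13.4%. The median difference of the 44 carriers was 0, as it was over all named genes. Raising values to 5 gave exactly 0 to 9 carriers and 7178 named genes, so these 2 medians cannot compare the groups. Where both tissues had signal above 5, the medians were -0.01 for 33 carriers and -0.07 for 9814 named genes. The carrier shares above count all 44 carriers, including those at or below background on both arrays. Among genes above background on both arrays, 21.2% of the carriers and 9.61% of the named genes passed 3-fold in either direction. Of 318 solute carrier genes outside the family, 44 passed 3-fold toward the small intestine and 23 toward the colon.

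**Figure D1:**
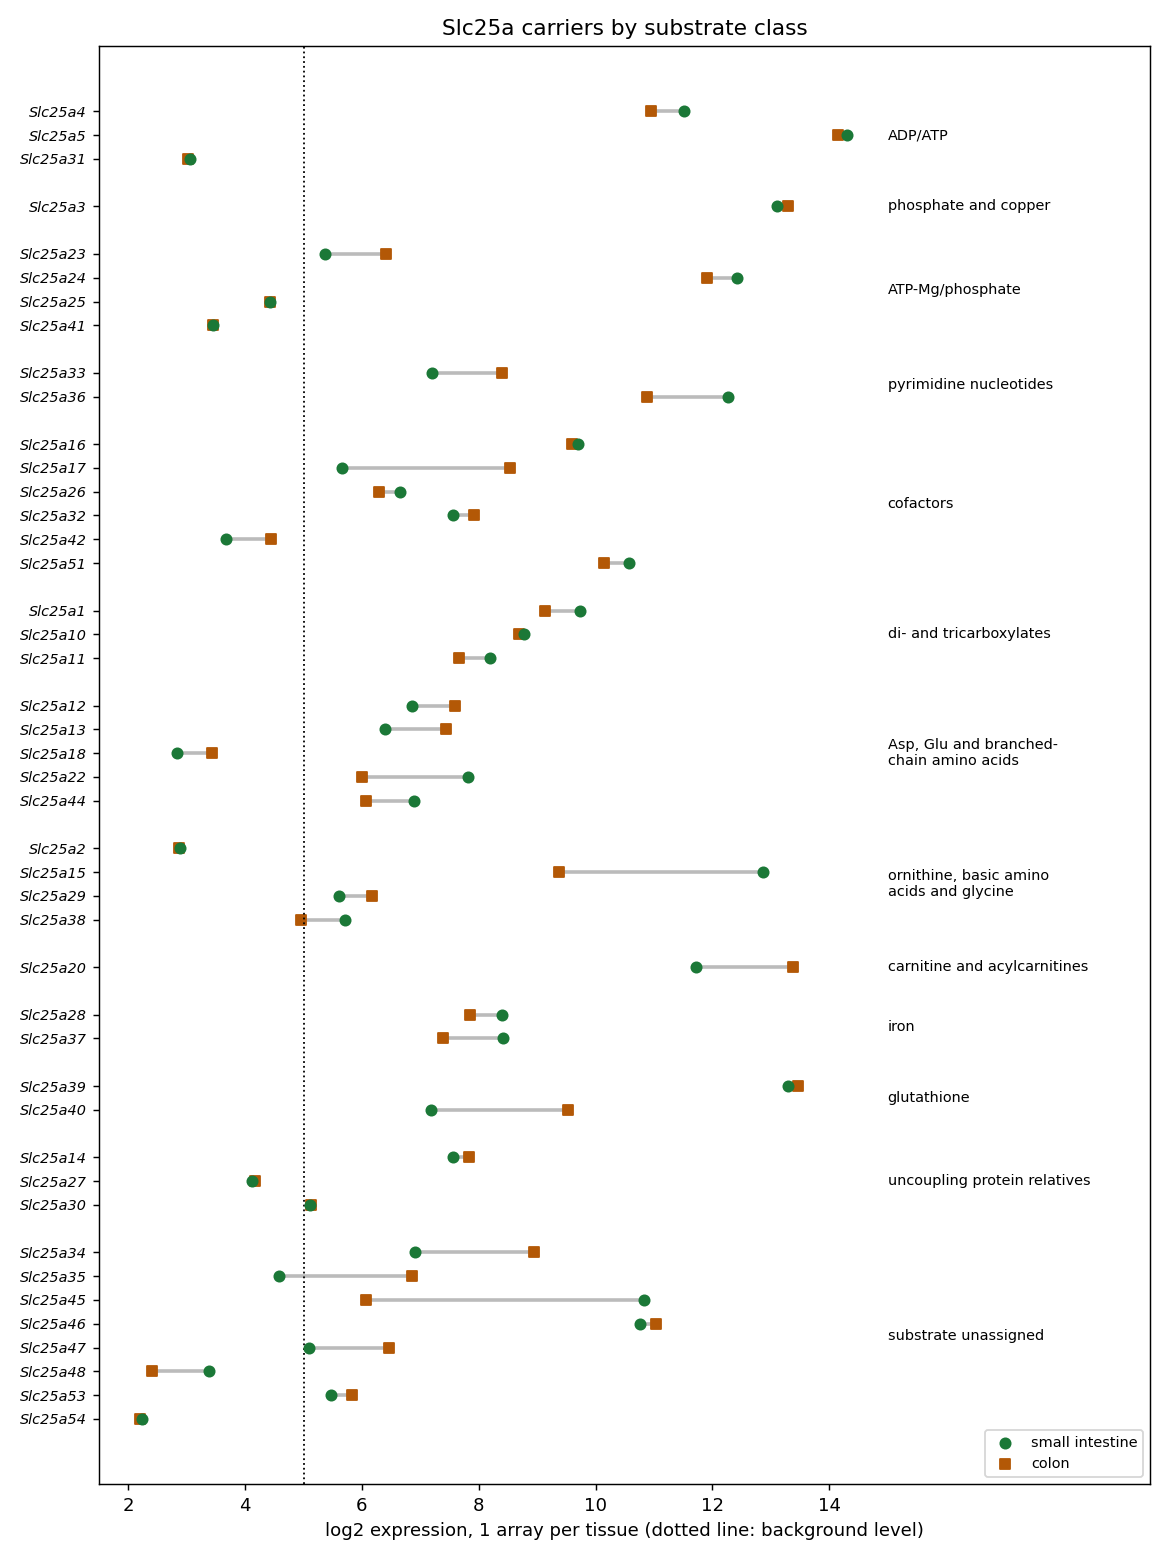
Log2 expression of each of 44 carriers on the small intestine array as circles and on the colon array as squares, grouped by substrate class, and a dotted line at the background level of 5. The widest gaps are those of Slc25a45 (10.83 and 6.07) and Slc25a15 (12.87 and 9.37) to the small intestine, and that of Slc25a17 (5.66 and 8.54) to the colon.

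To show the annotated start sites of carriers called in each direction, the 250 bases before the outermost RefSeq start of Slc25a15 and Slc25a22, higher in the small intestine, and of Slc25a17 and Slc25a20, higher in the colon, are printed 5′ to 3′ from assembly GRCm38.p6. Capitals mark the GC box (GGGCGG or its reverse complement) and, in Slc25a17, a CCAAT box.
Slc25a15, chr8:22398622-22398871, minus strand: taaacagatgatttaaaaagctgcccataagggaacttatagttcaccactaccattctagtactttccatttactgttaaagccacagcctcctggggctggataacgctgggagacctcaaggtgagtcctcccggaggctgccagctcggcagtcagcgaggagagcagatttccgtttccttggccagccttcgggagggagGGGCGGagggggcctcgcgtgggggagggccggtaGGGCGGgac
Slc25a22, chr7:141437875-141438124, minus strand: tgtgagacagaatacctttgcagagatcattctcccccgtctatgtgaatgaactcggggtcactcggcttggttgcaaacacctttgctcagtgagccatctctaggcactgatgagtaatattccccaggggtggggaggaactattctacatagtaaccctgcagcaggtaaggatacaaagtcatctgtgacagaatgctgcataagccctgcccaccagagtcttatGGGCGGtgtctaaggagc
Slc25a17, chr15:81360766-81361015, minus strand: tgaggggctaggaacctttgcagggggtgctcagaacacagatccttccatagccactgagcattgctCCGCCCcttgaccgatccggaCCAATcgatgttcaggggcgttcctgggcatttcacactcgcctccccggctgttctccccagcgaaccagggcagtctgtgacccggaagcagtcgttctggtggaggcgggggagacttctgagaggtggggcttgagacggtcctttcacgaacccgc
Slc25a20, chr9:108661886-108662135, plus strand: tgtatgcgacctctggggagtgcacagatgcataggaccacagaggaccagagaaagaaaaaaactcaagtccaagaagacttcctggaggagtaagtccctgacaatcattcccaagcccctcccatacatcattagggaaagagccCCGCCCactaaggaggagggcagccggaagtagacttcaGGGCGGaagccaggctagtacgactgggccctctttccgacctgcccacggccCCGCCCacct
All 4 hold at least 1 GC box. The promoter table of RefSeq held 34 of the 44 carriers with 43 start sites, and on either strand a GC box stood before 32 of these, or 74.4%, against 32.7% of 32851 promoters in the table, which also covers non-coding genes. CCAAT was found before 46.5% of the carriers' starts and 33.9% of all, the E-box CACGTG before 18.6% and 6.02%, and the letters TATAAA before 2.33% and 12.4%. The CDX core TTTATG stood before 6.98% and 10.8%. The HNF4 core CAAAGTCCA was in none of the 43 windows and in 0.38% of all. A match of letters is a description and not a binding site.

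Amino acid carriers held the differences that stood beside a shift of a whole route. Slc25a15, which exchanges ornithine for citrulline, had 12.87 on the small intestine array and 9.37 on the colon array, an 11.3-fold difference. Its second probe set had 7.66 and 3.12, so the small intestine was higher by both, and the colon was below background in the dimmer of them. Slc25a22, a glutamate carrier, had 7.82 and 6.01, which is 3.51-fold. Its relative Slc25a18 lay below background in both tissues, with 2.84 and 3.44. The ornithine carrier Slc25a2 was also below background in both.

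The enzymes around these carriers were higher in the small intestine as well. Of the 11 measured genes of the list from glutamine to citrulline and the urea cycle, 7 passed 3-fold in the small intestine and 0 the other way, with 1.93 as the median. Carbamoyl phosphate synthetase (Cps1), which makes the partner of ornithine in citrulline synthesis, had 12.54 on the small intestine array against 5.70 on the colon array, or 114-fold. Arginase 2 (Arg2), the mitochondrial form that splits arginine into ornithine and urea, had 12.71 and 9.48, or 9.41-fold. Ornithine transcarbamylase (Otc), which joins both substrates to citrulline, had 13.05 and 9.88, or 9.0-fold. Proline dehydrogenase (Prodh) was 6.90-fold higher, Aldh18a1, which makes the precursor of ornithine and proline from glutamate, 4.50-fold, the synthase of the activator of Cps1 (Nags) 3.80-fold and glutamate dehydrogenase (Glud1) 3.56-fold. Ornithine aminotransferase (Oat) had 13.25 and 12.28, under 2-fold. The cytosolic enzymes that take citrulline further did not share this difference. Ass1 and Arg1 were below background in both tissues, and Asl had 7.41 and 7.15. Leaving out probe sets that may bind several transcripts, Otc was at background in both tissues, with a difference of 0, and Aldh18a1 one of 0.76, and 5 of the 11 genes passed 3-fold.

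**Figure D2:**
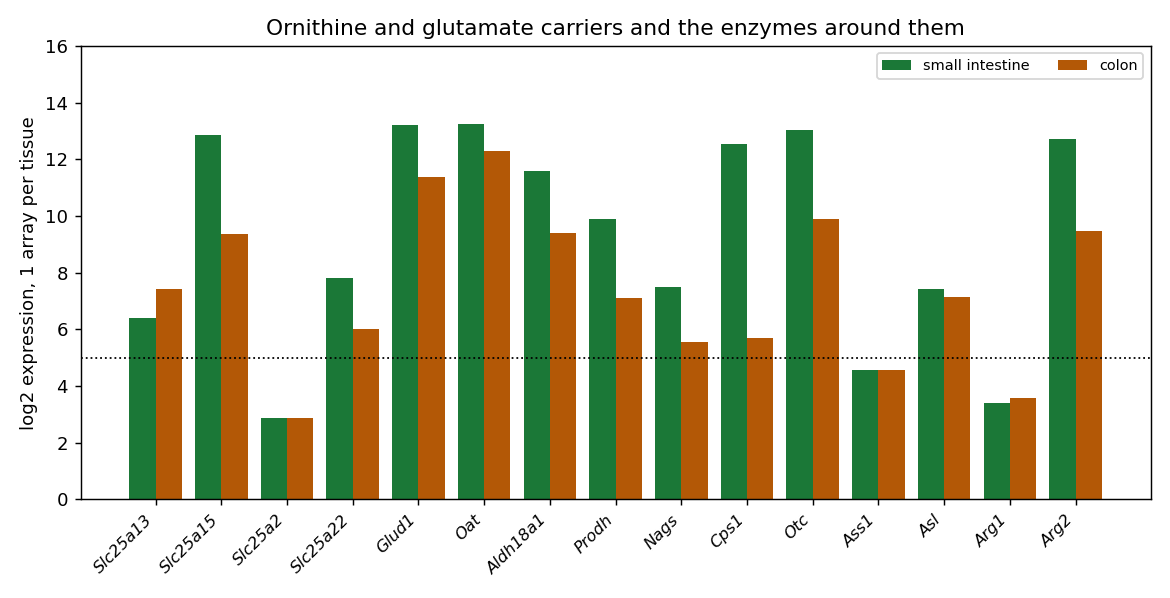
Log2 expression on the small intestine array and on the colon array of 4 carriers of ornithine, glutamate and aspartate and of 11 enzymes of the route from glutamate to citrulline and the urea cycle, and a dotted line at the background level of 5. Slc25a15 (12.87 and 9.37), Cps1 (12.54 and 5.70) and Otc (13.05 and 9.88) are higher in the small intestine, and Slc25a13 (6.39 and 7.43) is not.

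The aspartate/glutamate carriers, which serve the malate-aspartate shuttle, went the other way. Slc25a13 (citrin) had 6.39 on the small intestine array against 7.43 on the colon array, 2.05-fold more in the colon, and Slc25a12 (aralar) had 6.86 and 7.58, or 1.65-fold. Their enzyme partners did not follow. Cytosolic aspartate aminotransferase (Got1) was 2.61-fold higher in the small intestine, while the mitochondrial form (Got2) had 9.21 and 9.31. The glycerol phosphate shuttle, another way to move reducing equivalents into mitochondria, needs no Slc25 carrier, and both of its dehydrogenases were higher in the small intestine, Gpd1 by 13.4-fold and Gpd2 by 4.89-fold. The median over the probe sets of Gpd1 gave a difference of 1.10, under 3-fold.

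Other carriers of amino acids differed by less than 2-fold by their brightest probe sets. Slc25a44, which carries branched-chain amino acids, had 6.90 and 6.08, and its other probe set above background differed the same way, by 1.08 or 2.12-fold. Of the 8 genes of branched-chain amino acid and lysine breakdown, Bckdhb was 2.57-fold and Ivd 2.01-fold higher in the colon and none passed 3-fold. Slc25a38, a carrier of glycine for heme synthesis, had 5.72 on the small intestine array against 4.96 on the colon array, at least 1.64-fold. Slc25a29, a carrier of basic amino acids, had 5.60 and 6.17. Of the 7 genes of mitochondrial one-carbon and glycine metabolism, Mthfd2 passed 3-fold with 3.61-fold more in the small intestine, and its median over probe sets was 1.05, under 3-fold.

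Slc25a20, the carnitine/acylcarnitine carrier that brings fatty acids into the matrix for oxidation, had 11.72 on the small intestine array against 13.37 on the colon array, 3.14-fold more in the colon. Its second probe set had 8.47 and 10.55, a difference of -2.08 against -1.65 of the first. The carrier lay just past 3-fold, and centring the arrays on spike-in controls gave -1.40, short of it. Of 9 other genes of the carnitine shuttle and of fatty acid oxidation, none passed 3-fold by its brightest probe set, and their median difference was -0.11. The acyl-CoA dehydrogenase Acadl was higher in the colon by 2.23-fold, and the carnitine acetyltransferase Crat 2.13-fold higher in the small intestine. The carnitine palmitoyltransferases on either side of the carrier, Cpt1a (10.17 and 10.54) and Cpt2 (9.40 and 9.01), differed by less than 2-fold by their brightest probe sets. The 3 probe sets of Cpt1a ranged from -1.63 to 0.04, so that 1 of them differed by about as much as Slc25a20.

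Slc25a17, a carrier of cofactors such as coenzyme A and FAD in the peroxisomal membrane, had the largest difference in favour of the colon among the 44 carriers, with 5.66 on the small intestine array against 8.54 on the colon array, or 7.36-fold. Its second probe set had 2.33 and 2.32 and gave no information, so that the median over both probe sets was -1.44, under 3-fold. The mitochondrial carriers of cofactors did not share the difference. The NAD carrier Slc25a51 had 10.57 and 10.15, with all 3 of its probe sets slightly higher in the small intestine. Slc25a16, linked to coenzyme A, had 9.70 and 9.60, the S-adenosylmethionine carrier Slc25a26 6.65 and 6.30, and the folate carrier Slc25a32 7.56 and 7.92, with another probe set of Slc25a32 at 0.79 in the other direction. Slc25a42, which carries coenzyme A, was below background in both tissues. None of the 10 genes that make or take up these cofactors passed 2-fold by its brightest probe set, while another probe set of Nadk2 differed by 1.61.

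The glutathione carriers Slc25a39 and Slc25a40 differed from each other. Slc25a40 had 7.18 on the small intestine array against 9.52 on the colon array, or 5.06-fold more in the colon, from 1 probe set. Slc25a39 had 13.30 and 13.47, and its 4 probe sets above background lay between -0.64 and 0.54, in both directions. Of the 6 genes of glutathione synthesis and use, the reductase Gsr was 4.0-fold higher in the small intestine, but its median over probe sets was 1.26, under 3-fold. The ligase Gclc and the synthase Gss were 2.11-fold and 2.18-fold higher in the colon by their brightest probe sets. The other probe set of Gclc differed by -1.89, past 3-fold, and that of Gss by only -0.06.

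The 8 carriers with no assigned substrate in the classes used here ranged from -2.04 to 4.76. Slc25a45 had 10.83 on the small intestine array against 6.07 on the colon array, 27.1-fold, which is the largest difference of the family. Slc25a34 had 6.91 and 8.95, or 4.12-fold more in the colon, and Slc25a35 had 4.59 and 6.85, at least 3.61-fold. Slc25a35 passed 3-fold at background levels of 4 and 5 and had a difference of -0.85 at a level of 6. Each of these 3 rests on 1 probe set. Slc25a47, a carrier best known from liver, had 5.09 and 6.46, or 2.59-fold more in the colon, from a probe set that may bind other transcripts. Of the 4 measured liver genes, Alb and Cyp7a1 were below background on both arrays, Ttr had 8.46 and 12.37, 15.1-fold more in the colon as Slc25a47 was, and Cps1 was higher in the small intestine. Their part in the value of Slc25a47 was not tested. Slc25a46, a protein of the outer membrane, had 10.76 and 11.03, and its other probe set differed by -1.0. Slc25a53 had 5.47 and 5.84, and its other probe set differed the other way, by 0.42. Slc25a48 and Slc25a54 were below background in both tissues.

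The ADP/ATP and phosphate carriers, which supply oxidative phosphorylation, differed by less than 2-fold. The ADP/ATP carriers Slc25a4 and Slc25a5 had 11.51 and 14.30 in the small intestine and 10.94 and 14.15 in the colon. The probe sets of Slc25a4 above background differed by 0.57, 0.15 and -0.03. Of the 8 probe sets of Slc25a5, 7 were higher in the small intestine, with differences from -0.22 to 0.99, and most of them may bind related transcripts. Slc25a31, the form known from testis, was below background on both arrays. The phosphate and copper carrier Slc25a3 had 13.10 and 13.29. Of 9 measured genes listed as partners of ATP export, not all of which pass ATP on, hexokinases Hk1 (5.13-fold) and Hk2 (3.0-fold) passed 3-fold in the colon. Hk1 had -1.26, under 3-fold, when its probe sets were averaged by their median, and Hk2 fell under every other scaling tried, the least being -1.34. The mitochondrial creatine kinase Ckmt1 had 13.57 and 12.51, and the list had a median of -1.04.

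The pyrimidine nucleotide carriers differed in opposite directions. Slc25a36 had 12.27 on the small intestine array against 10.88 on the colon array, 2.61-fold, and Slc25a33 had 7.20 and 8.40, 2.29-fold more in the colon. The other 2 probe sets of Slc25a36 differed by only 0.54 and 0.41, in the same direction. Of the ATP-Mg/phosphate carriers, which adjust the adenine nucleotide pool in response to calcium, Slc25a23 had 5.36 and 6.41, or 2.07-fold more in the colon, and Slc25a25 and Slc25a41 were below background in both. Slc25a24 had 12.42 and 11.90 by its brighter probe set, but 5.20 and 7.72 by the other. These probe sets differed by 0.52 and -2.53, so no direction is given for Slc25a24.

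**Figure D3:**
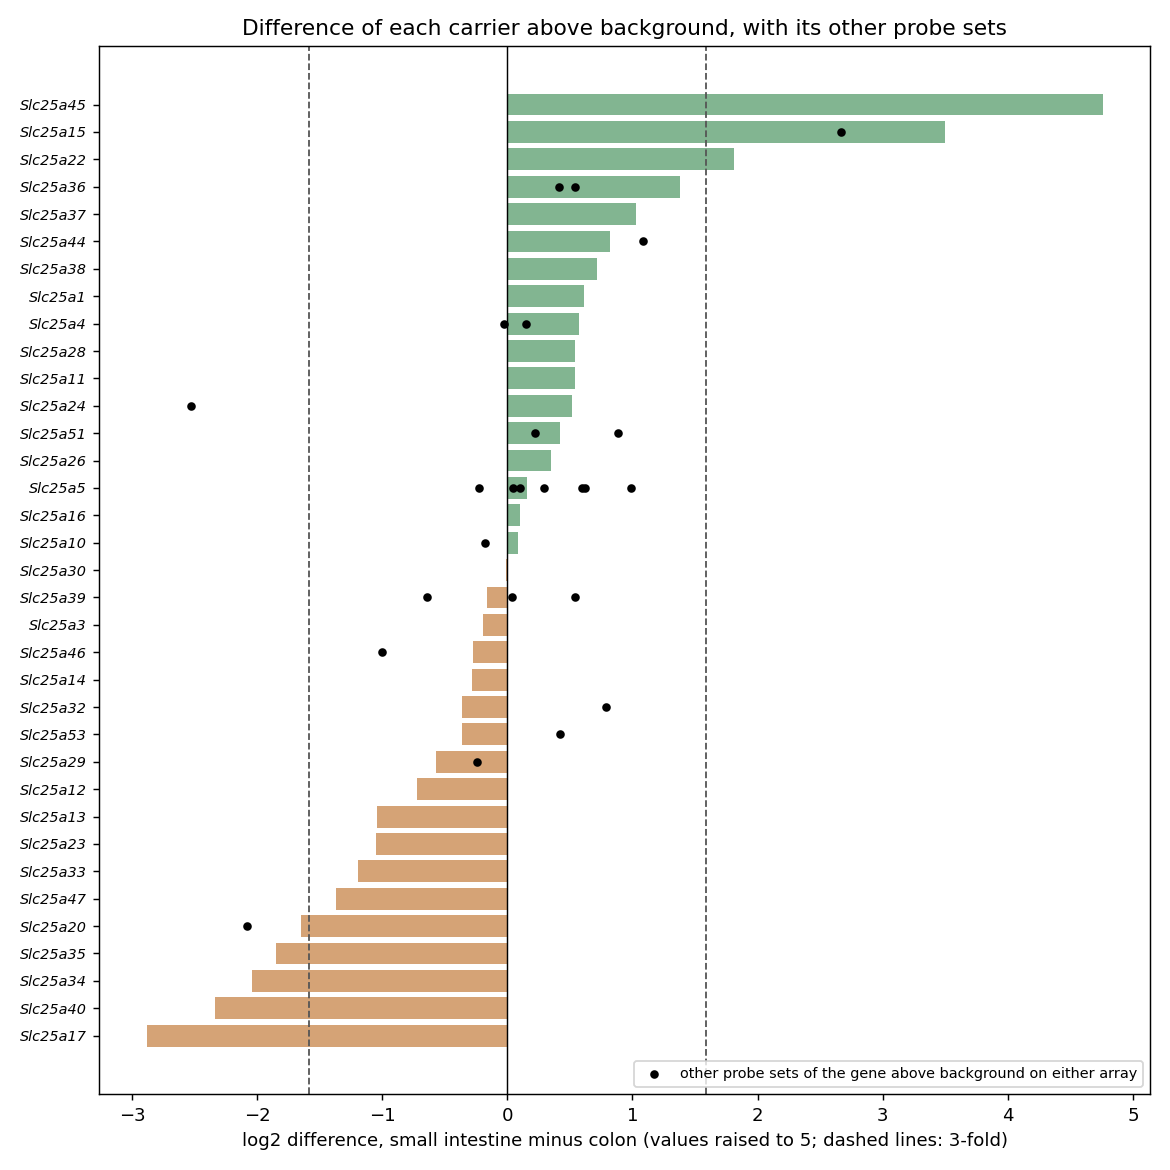
Log2 difference, small intestine minus colon, of the carriers above background on either array (bars), with the other probe sets of the same gene that were above background on either array as black points and 3-fold as dashed lines. The probe sets of Slc25a15 (3.50 and 2.66) and of Slc25a20 (-1.65 and -2.08) lie on the same side, and those of Slc25a24 (0.52 and -2.53) on opposite sides.

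The carriers of citrate and dicarboxylates were slightly higher in the small intestine by their brightest probe sets. The citrate carrier Slc25a1 had 9.74 and 9.13, the oxoglutarate carrier Slc25a11 8.20 and 7.66, and the dicarboxylate carrier Slc25a10 8.78 and 8.69, all under 2-fold. A further probe set of Slc25a10 differed the other way, by -0.18. In the cytosol, Acly, which uses exported citrate, was 2.64-fold higher in the colon, and Me1, which uses malate, 2.79-fold. The cytosolic malate dehydrogenase Mdh1, of the shuttle list, went the other way with 14.44 and 13.96, and its probe sets ranged from 0 to 1.14. Mpc1, a subunit of the pyruvate carrier outside the Slc25 family, was 2.19-fold higher in the colon. None of the 9 genes of the pyruvate and citrate list passed 3-fold.

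Both iron carriers were higher in the small intestine by a small margin. Slc25a37 (mitoferrin-1) had 8.42 and 7.39, or 2.04-fold, and Slc25a28 (mitoferrin-2) 8.39 and 7.85. Since red cell markers such as Alas2 (2.04 and 2.00) were at background, red cell precursors were not detected beside these values. Of 11 genes of heme and iron-sulfur cluster synthesis none passed 3-fold, with Cpox 2.57-fold higher in the small intestine and Uros 2.22-fold higher in the colon. Of the relatives of uncoupling proteins, Slc25a14 had 7.56 and 7.84, Slc25a30 5.12 and 5.13, and Slc25a27 was below background, as were Ucp1 and Ucp3. Ucp2 was not analysed here. Members of the wider family under other names, Mtch1 (8.14 and 8.22) and Mtch2 (11.52 and 11.90), differed by less than 2-fold.

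Of 13 genes of the TOM and TIM22 route that imports the carriers, none passed 2-fold by its brightest probe set, and their median difference was 0.15. Other probe sets did pass 2-fold, at -1.16 for Tomm20 and 1.03 for Tomm70a. The receptor Tomm70a, which binds carrier precursors, had 10.85 and 10.07, the small chaperone Timm9 7.18 and 6.47, and the pore protein Timm22 8.48 and 8.33. Of the 4 measured genes of the calcium uniporter and related transport none passed 2-fold, with Mcu at 9.27 and 8.60. Among 8 regulators of mitochondrial genes none passed 3-fold by its brightest probe set. For Ppara that probe set gave -0.30, while another differed by 1.74, past 3-fold. Ppargc1a was 2.36-fold higher in the small intestine, with its 5 probe sets between -0.39 and 1.24, and Ppargc1b 2.83-fold higher in the colon.

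**Figure D4:**
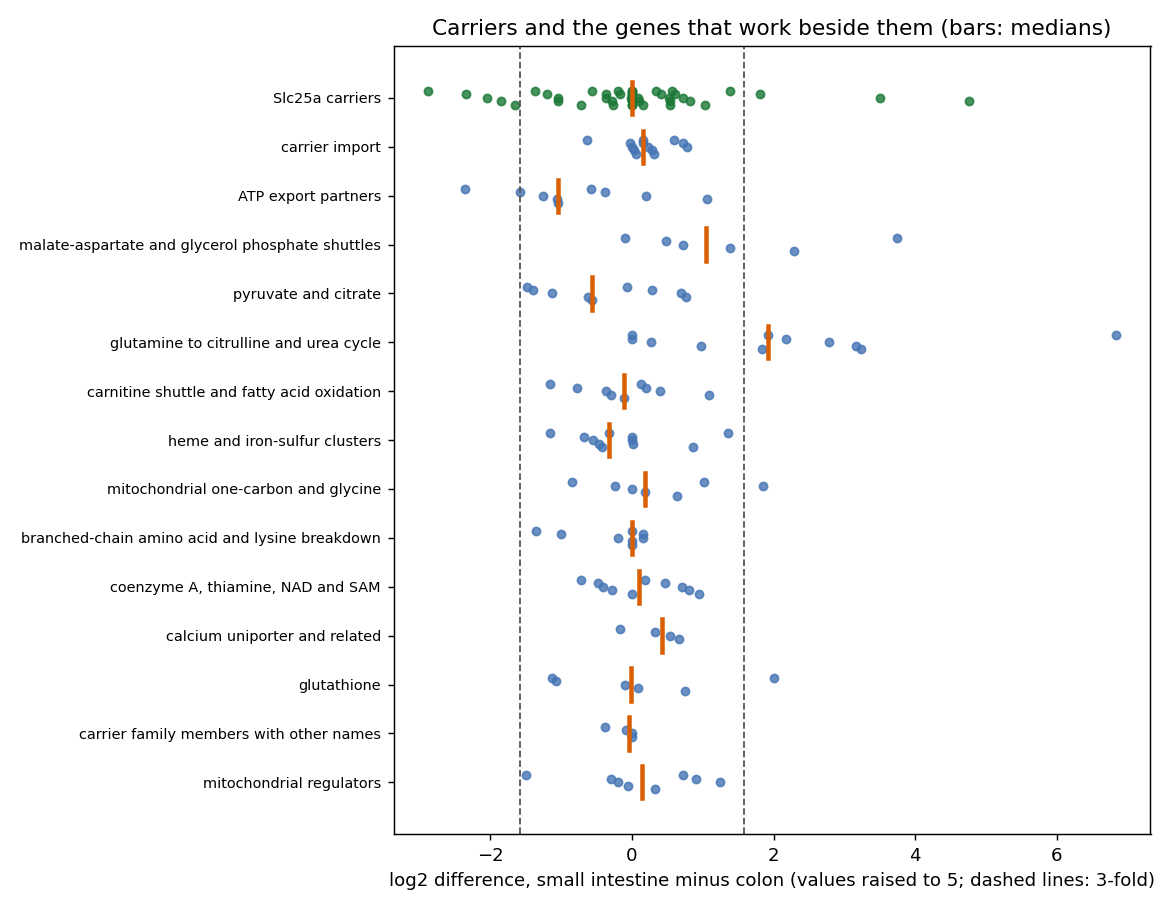
Log2 difference, small intestine minus colon, of the 44 carriers (top line) and of the genes of 14 lists of enzymes and proteins that work beside them (each point 1 gene, bars the list medians, dashed lines 3-fold). The list from glutamine to citrulline has a median of 1.93 with Cps1 at 6.84, the import list lies within -0.64 and 0.78, and the carriers spread from -2.88 to 4.76.

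Some carriers are neighbours on a chromosome. Slc25a47 and Slc25a29, next to each other in the RefSeq order of protein-coding genes, had differences of -1.37 and -0.57. Slc25a23 had -1.05 while its neighbour Slc25a41 was below background, and Slc25a54 was below background beside Slc25a24. Slc25a43, the neighbour of Slc25a5, was not analysed here.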

How the data were processed

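Total RNA was extracted with an RNeasy kit, checked on a Bioanalyzer and labelled with biotin. The authors deposited 1 log2 expression value per probe set, already normalized. Their processing notes name GCRMA and the methods of the study RMA, both without a version, and the sources used here do not say which arrays were normalized with which. GCRMA can widen folds against dim values. Of 45101 probe sets, 34958 named 1 gene in the platform annotation, 932 named several and were not used, and 34754 matched the RefSeq table of GRCm38.p6 by identifier. Where several probe sets named a gene, the brightest by its mean was used. Values below 5 were raised to 5, a level above all 80 olfactory and vomeronasal receptor probe sets (highest 4.78), and the number 3 for the fold was taken from the study, which applied it to FPKM of sequenced RNA with 1 added in the lower tissue, not to arrays. The arrays had medians of 3.99 (small intestine) and 4.01 (colon).

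As technical spread, differences of probe sets that share a gene had a pooled SD of 0.54 over 3535 genes and 0.62 over 11 carriers, and 18 hybridization spike-ins differed by -0.25 ± 0.67 (SD). Neither measures the spread between animals. All carriers were named. From each partner list, genes past 3-fold were named up to 6, with up to 2 more by size, and from marker lists up to 3. Some list genes were named beyond this after their values were seen. Members and lists were chosen with earlier results of these data known. Alternatives were other background levels, no floor, a 5-fold threshold, quantile normalization, centring on the median or on spike-ins, and the median over probe sets. A further one left out the probe sets with suffix _x, _s or _a, called shared below. These may bind several transcripts, of the same gene or of others. The procedure was tested on simulated data. Python 3.11.15, numpy 2.4.6, pandas 2.3.3 and matplotlib 3.10.9 were used.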

Additional observations from a re-analysis of the deposited data

How the results depend on the processing

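The 3 carriers higher in the small intestine stayed past 3-fold under all 8 alternatives of background, scaling and probe set, with differences from 4.76 to 5.01 for Slc25a45, from 3.08 to 3.75 for Slc25a15 and from 1.81 to 2.06 for Slc25a22, and centring on spike-ins added Slc25a36 at 1.63. In the colon, 4 or 5 carriers passed. Slc25a20 fell under 3-fold when centred on spike-ins (-1.40), Slc25a17 with the median over probe sets (-1.44) and Slc25a35 at a background level of 6 (-0.85). At 5-fold in place of 3-fold, 2 carriers were higher in each tissue. At 2-fold, the count higher in the small intestine fell from 5 to 3 without shared probe sets, where 40 carriers were left, as Slc25a36 had 0.54 and Slc25a37 had no other probe set. In the colon the 2-fold count of 9 ranged from 6 to 10. At a background level of 6 it lost Slc25a23 (-0.41), Slc25a47 (-0.46) and Slc25a35, centred on spike-ins Slc25a13 (-0.79), Slc25a23 (-0.80) and Slc25a33 (-0.95), with quantile normalization Slc25a13 (-0.99), and without shared probe sets Slc25a47. Slc25a24 turned from 0.52 to -1.0 with the median over probe sets. Of the 11 genes of the list from glutamine to citrulline, between 5 and 7 passed 3-fold, alternatives chosen after seeing the data. No paired analysis was possible because each tissue had 1 array, and no replicate could be left out. The number of arrays limits the precision, and carriers near background have no measured difference.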
